A study of Mus musculus with 12 samples.

Results

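Striatal projection neuron markers are genes by which the principal neurons of the striatum are recognised. The 9 genes described here were chosen by name, with earlier results of these data known, from a table of 27978 genes: Ppp1r1b, Penk, Drd1, Drd2, Adora2a, Pde10a, Rasd2, Rgs9 and Adcy5. All 9 were in the table, and all 9 were tested, since each averaged 1 FPKM or more (FPKM, fragments per transcript length and sequencing depth, as computed by the authors). The libraries were made from total RNA of mouse hippocampal tissue after fecal microbiota transplantation. There were 12 libraries, 4 in each of the groups FMT-SP, FMT-DSS and FMT-CON. The series' own design text calls FMT-SP by the name FMT-DSS+SP and gives SP as substance P, a neuropeptide. The labels do not say what DSS and CON stand for, at which step substance P was given, which strain, sex or age the mice had, or whether each library came from a separate mouse. P-values therefore measure the spread between these libraries, which may be technical.

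Projection neurons of the striatum are GABAergic cells of 2 kinds. Those of the direct pathway carry the D1 dopamine receptor and make the peptides substance P and dynorphin. Those of the indirect pathway carry the D2 dopamine receptor and a striatal adenosine receptor and make enkephalin. In both kinds the receptors act on a cAMP cascade in which a striatal adenylyl cyclase, a striatal phosphodiesterase and the phosphatase inhibitor DARPP-32 take part. The hippocampus lies next to the striatum, thalamus and choroid plexus, and its own neurons express several of these genes at lower levels.

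Hippocampal markers were present in every library. The 7 markers of CA1 pyramidal cells summed to 170.1 to 249.9 FPKM in FMT-SP, 215 to 296 FPKM in FMT-DSS and 125 to 255 FPKM in FMT-CON, and 0 of them were at 0 in any library. The 8 markers of dentate granule cells summed to 96.1 to 118 FPKM in FMT-SP, 82.8 to 119 FPKM in FMT-DSS and 103 to 137 FPKM in FMT-CON. An estimate of depth from the steps of low values gave 0.0134 to 0.0159 FPKM as the worth of a single fragment when the transcript is 2000 bases long. In the 3 libraries numbered 4, the 13 genes of the mitochondrial genome took 23.97% to 29.03% of all FPKM, and in the other 9 libraries 15.9% to 20.3%.

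The 9 striatal markers varied widely between libraries of the same group. FMT-DSS 3 had the highest level of all 9. For 8 of the 9, the 5 highest libraries were the same: FMT-SP 3, FMT-DSS 1, FMT-DSS 3, FMT-CON 1 and FMT-CON 2. Each group thus held libraries with high and libraries with low levels. The exception was Ppp1r1b, for which FMT-DSS 2 took the place of FMT-SP 3. In bulk tissue, more cells of a type and more RNA per cell cannot be told apart.

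**Figure D1:**
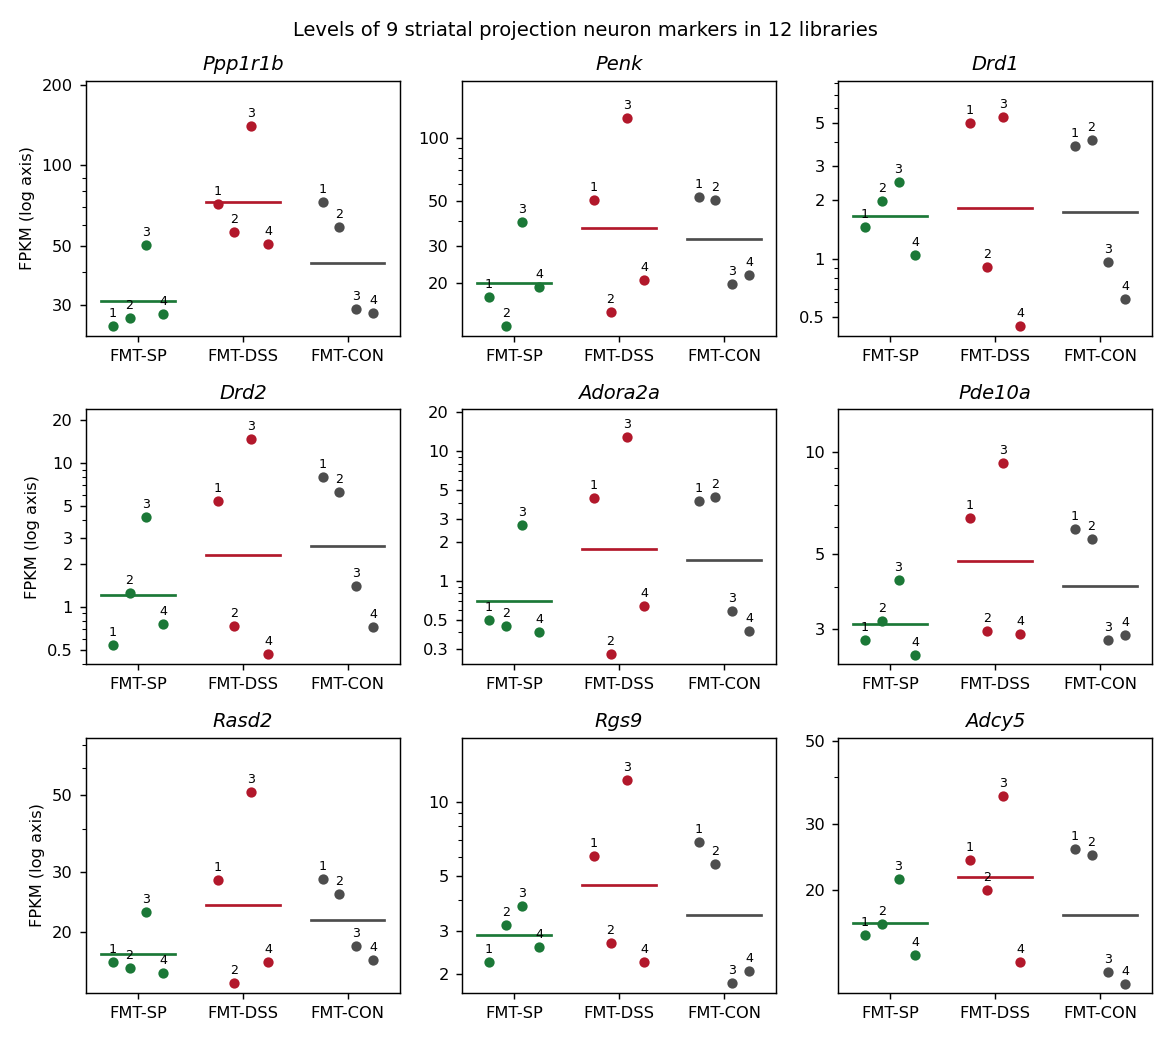
Level of each of the 9 markers in the 12 libraries, in FPKM on a log axis that differs between panels. Points are libraries with their replicate numbers, and bars are geometric means of 4 libraries. FMT-DSS 3 is the highest point in every panel, and in most panels FMT-SP 3, FMT-DSS 1, FMT-CON 1 and FMT-CON 2 follow it.

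Both dopamine receptors varied widely. Drd1, which encodes the D1 receptor that stimulates cAMP synthesis, lies on chromosome 13 (54051183 to 54055705, GRCm38). It had 1.45, 1.99, 2.48 and 1.04 FPKM in FMT-SP 1 to 4, 4.97, 0.905, 5.38 and 0.453 FPKM in FMT-DSS 1 to 4, and 3.78, 4.10, 0.967 and 0.617 FPKM in FMT-CON 1 to 4. The 3 groups overlapped, with both the highest and the lowest value in FMT-DSS. Drd2, which encodes the D2 receptor that restrains cAMP synthesis, lies on chromosome 9 (49340627 to 49408177). It had 0.540, 1.25, 4.20 and 0.763 FPKM in FMT-SP 1 to 4, 5.46, 0.733, 14.7 and 0.472 FPKM in FMT-DSS 1 to 4, and 7.97, 6.27, 1.39 and 0.727 FPKM in FMT-CON 1 to 4. Its highest value was 31.2 times its lowest, and both were again in FMT-DSS.

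The other receptor, Adora2a, had the widest range of the 9 from lowest to highest library. It encodes an adenosine receptor that opposes the D2 receptor in indirect pathway neurons, and lies on chromosome 10 (75316877 to 75334784). Adora2a had 0.496, 0.447, 2.69 and 0.402 FPKM in FMT-SP 1 to 4, 4.33, 0.274, 12.8 and 0.637 FPKM in FMT-DSS 1 to 4, and 4.08, 4.43, 0.582 and 0.408 FPKM in FMT-CON 1 to 4. The highest value was 46.5 times the lowest over all libraries, 6.69 times within FMT-SP, 46.5 times within FMT-DSS and 10.9 times within FMT-CON. In the 7 libraries outside the 5 named above it stayed at or under 0.637 FPKM.

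Penk, which encodes the precursor of the enkephalin peptides, is the transmitter gene of the set and lies on chromosome 4 (4133531 to 4138819). It had 17.0, 12.4, 39.3 and 19.1 FPKM in FMT-SP 1 to 4, 50.4, 14.4, 125 and 20.6 FPKM in FMT-DSS 1 to 4, and 51.8, 50.2, 19.7 and 21.8 FPKM in FMT-CON 1 to 4. Unlike the receptors, Penk stayed above 12 FPKM in every library, as did Ppp1r1b and Rasd2. Penk is also made by neurons of the hippocampus, and their part in its level was not tested. The 5 highest libraries had at least 39.3 FPKM, the value of FMT-SP 3, and the other 7 at most 21.8 FPKM, the value of FMT-CON 4.

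Ppp1r1b encodes DARPP-32, an inhibitor of protein phosphatase 1 that is switched on by cAMP-dependent kinase. The gene lies on chromosome 11 (98348404 to 98357796) and had the highest mean of the set, 53.1 FPKM. Its levels were 25.1, 26.8, 50.2 and 27.8 FPKM in FMT-SP 1 to 4, 71.5, 56.4, 140.4 and 50.6 FPKM in FMT-DSS 1 to 4, and 73.0, 58.8, 28.9 and 27.9 FPKM in FMT-CON 1 to 4. FMT-SP and FMT-DSS did not overlap, by a margin of 50.2 against 50.6 FPKM, while both overlapped with FMT-CON. Ppp1r1b was high relative to Penk in FMT-DSS 2 and FMT-DSS 4. Penk stood at 0.255 and 0.407 times Ppp1r1b there, a ratio of FPKM values, and between 0.463 and 0.893 times in the other 10 libraries.

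**Figure D2:**
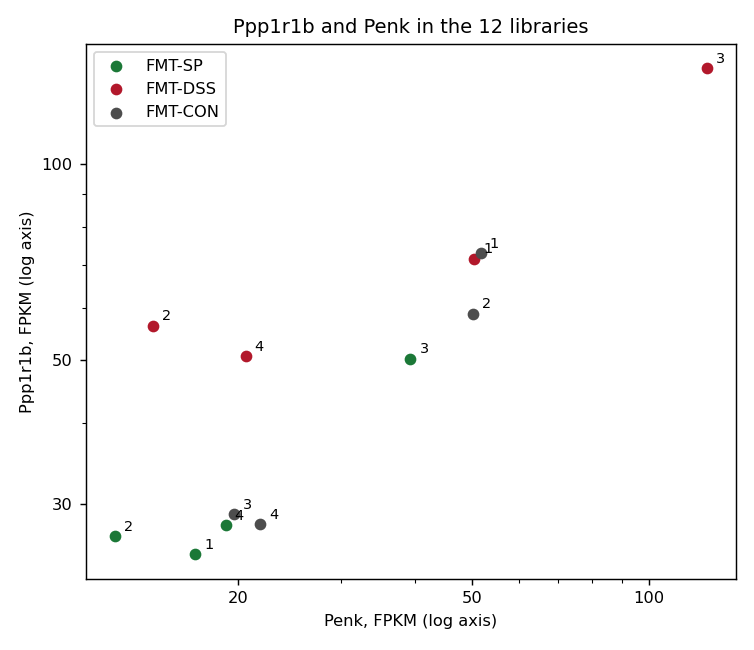
Level of Ppp1r1b against level of Penk, both in FPKM on log axes, with 1 point per library, coloured by group and labelled with its replicate number. FMT-DSS 2 and FMT-DSS 4, at 56.4 and 50.6 FPKM of Ppp1r1b, lie above the libraries of like Penk level, and FMT-DSS 3 is highest in both.

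Adcy5 and Pde10a encode enzymes that make and degrade cAMP in striatal neurons. Adcy5, the main striatal adenylyl cyclase, on chromosome 16 (35154877 to 35305738), had 15.1, 16.2, 21.3 and 13.3 FPKM in FMT-SP 1 to 4, 24.03, 19.9, 35.7 and 12.8 FPKM in FMT-DSS 1 to 4, and 25.7, 24.7, 11.997 and 11.2 FPKM in FMT-CON 1 to 4. Pde10a, a phosphodiesterase enriched in both kinds of projection neuron, on chromosome 17 (8525372 to 8986648), had 2.79, 3.18, 4.20 and 2.52 FPKM in FMT-SP 1 to 4, 6.41, 2.97, 9.30 and 2.90 FPKM in FMT-DSS 1 to 4, and 5.95, 5.53, 2.78 and 2.89 FPKM in FMT-CON 1 to 4. Adcy5 had the narrowest range of the set, a highest value 3.19 times its lowest, and Pde10a a range of 3.69 times. All 3 groups overlapped in both genes.

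Rgs9 and Rasd2 encode regulators of G protein signalling. Rgs9, whose long brain form speeds the end of dopamine receptor signals, on chromosome 11 (109225355 to 109298129), had 2.25, 3.17, 3.78 and 2.57 FPKM in FMT-SP 1 to 4, 6.03, 2.68, 12.2 and 2.23 FPKM in FMT-DSS 1 to 4, and 6.90, 5.57, 1.85 and 2.06 FPKM in FMT-CON 1 to 4. Rasd2, which encodes the small GTP-binding protein Rhes, on chromosome 8 (75213944 to 75224113), had 16.4, 15.8, 22.9 and 15.3 FPKM in FMT-SP 1 to 4, 28.3, 14.2, 51.0 and 16.3 FPKM in FMT-DSS 1 to 4, and 28.6, 25.8, 18.3 and 16.6 FPKM in FMT-CON 1 to 4. In both genes the same 5 libraries were highest and the groups overlapped.

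Promoter sequences were looked at because the 9 genes moved together over the libraries. RefSeq (build GRCm38.p6) gave 8 promoter entries for 6 members, and Ppp1r1b, Penk and Adora2a had none in the table. The 250 bases upstream of the start are shown for Drd2, a receptor of wide range, Adcy5, the gene of narrowest range, and Rgs9, the entry that held a TATA motif, each 5′ to 3′ on the gene's own strand. Capitals mark matches on either strand to GGGCGG (a GC box) and TATAAA.
Drd2, chr9:49340153-49340402, plus strand: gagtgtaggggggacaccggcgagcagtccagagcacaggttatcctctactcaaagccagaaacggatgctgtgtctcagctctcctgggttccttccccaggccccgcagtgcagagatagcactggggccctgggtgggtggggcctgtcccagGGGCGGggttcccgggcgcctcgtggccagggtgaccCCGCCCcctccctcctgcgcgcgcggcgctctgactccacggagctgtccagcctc
Adcy5, chr16:35154614-35154863, plus strand: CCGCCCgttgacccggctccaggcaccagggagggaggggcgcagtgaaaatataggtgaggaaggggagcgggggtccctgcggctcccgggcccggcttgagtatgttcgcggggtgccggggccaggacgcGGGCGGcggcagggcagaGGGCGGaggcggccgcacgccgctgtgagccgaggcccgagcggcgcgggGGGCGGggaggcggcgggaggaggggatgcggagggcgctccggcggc
Rgs9, chr11:109298182-109298431, minus strand: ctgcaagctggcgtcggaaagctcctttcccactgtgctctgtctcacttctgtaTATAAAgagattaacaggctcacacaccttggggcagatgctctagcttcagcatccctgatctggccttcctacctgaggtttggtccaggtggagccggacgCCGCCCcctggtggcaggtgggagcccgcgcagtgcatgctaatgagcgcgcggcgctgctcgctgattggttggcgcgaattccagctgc

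GGGCGG was in 5 of the 8 member entries and in 32.7% of all 32851 promoters of the same length. TATAAA was in 1 of the 8 and in 12.4% of all promoters, and TGACG, the core of the cAMP response element, in 0 of the 8 and in 17.8%. No matches of these motifs overlapped in the 8 entries. The entries had a GC content of 56.0% to 78.0%, against a median of 52.4% over all promoters. These are matches of letters in a short window, and they were not tied to any difference between libraries.

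Across the libraries the markers varied together. Over the 36 pairs of members, Pearson's correlation of log2(FPKM + 1) across the 12 libraries ran between 0.70 and 0.98, with a median of 0.92. Without FMT-DSS 3 the range was 0.59 to 0.98 and the median 0.89, and Spearman's rho had a median of 0.76. These values describe libraries that share tissue and depth, and members were not independent of each other. The members were also chosen with earlier results of these data known. Ppp1r1b was the member least like the others (median correlation 0.86) and Adora2a the most (0.97).

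The members did not keep a fixed proportion to each other. Drd1 was 2.69, 1.60, 0.590 and 1.37 times Drd2 in FMT-SP 1 to 4, 0.910, 1.23, 0.365 and 0.960 times in FMT-DSS 1 to 4, and 0.474, 0.654, 0.694 and 0.848 times in FMT-CON 1 to 4, as ratios of FPKM. The ratio was lowest in FMT-DSS 3 and FMT-CON 1, the libraries highest in Drd2. Drd2 is its denominator, so low ratios there are partly built in. Adora2a was 0.358 times Adcy5 in FMT-DSS 3 and 0.0138 times in FMT-DSS 2. Against the median of the other 11 libraries, FMT-DSS 3 had 21.9 times as much Adora2a, 11.8 times as much Drd2, 6.07 times as much Penk, 4.56 times as much Rgs9, 3.71 times as much Drd1, 3.13 times as much Pde10a, 3.06 times as much Rasd2, 2.80 times as much Ppp1r1b and 2.20 times as much Adcy5. Adora2a and Drd2 were the genes with the largest such ratios among the 12559 tested, of which 93 (0.741%) reached 2-fold. FMT-DSS 3 was singled out after its values were seen.

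The spread within groups was set beside the differences between groups for each member on the log2(FPKM + 1) scale. The SD within groups was 0.50 for Pde10a, 0.51 for Adcy5, 0.53 for Rasd2, 0.61 for Ppp1r1b, 0.71 for Rgs9, 0.83 for Drd1, 0.97 for Penk, 1.17 for Adora2a and 1.24 for Drd2, with a median of 0.71. The median over all 12559 tested genes was 0.20, and between 95.6% and 99.8% of tested genes had a smaller SD than a given member. Against the 500 genes closest in mean level, Pde10a exceeded 94.6% and Drd2 exceeded 100%. As the members were chosen with earlier results of these data known, these ranks are a description and not a test. The distance between the highest and the lowest group mean had a median of 0.57 over the members. Its quotient with the SD within groups, taken per member, had a median of 0.81. Over all tested genes that quotient had a median of 0.71. Ppp1r1b was at 1.99 times and Drd1 at 0.31 times.

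Group membership held a median of 13.0% of the sum of squares of the members, against 11.1% for all tested genes. The shares were 47.2% for Ppp1r1b, 18.6% for Pde10a, 16.4% for Penk, 14.6% for Rasd2, 13.0% for Adora2a, 12.8% for Adcy5, 12.5% for Rgs9, 10.1% for Drd2 and 2.05% for Drd1. By the F test of limma for any difference among the 3 groups, 0 of the 9 members had an adjusted p under 0.05, as had 0% of all tested genes. At an unadjusted p under 0.05 there was 1 member, Ppp1r1b, beside 2.11% of all tested genes. Its adjusted p by the limma F test was 0.9999.

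**Figure D3:**
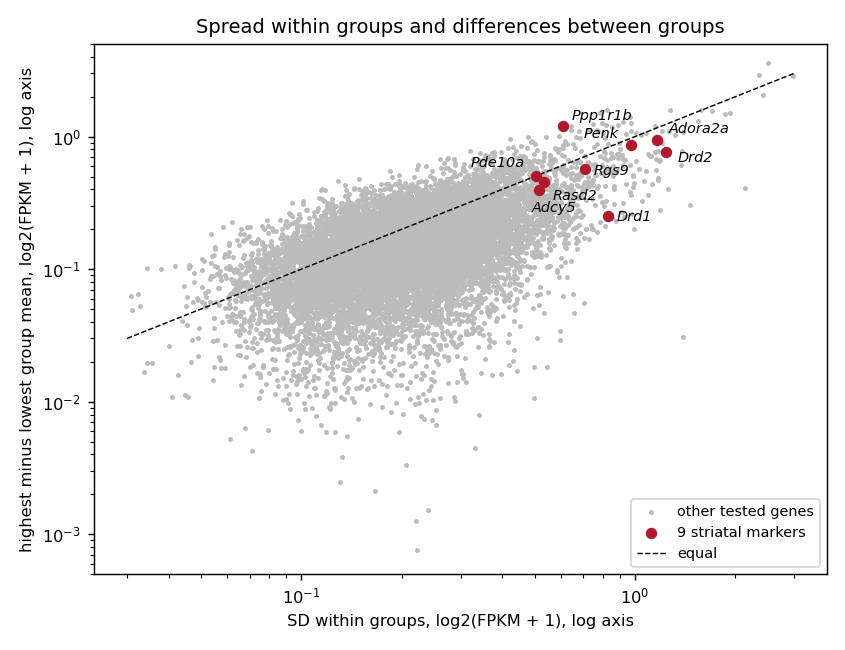
Highest minus lowest group mean against the SD within groups for 12559 tested genes, both in log2(FPKM + 1) units on log axes. Red points are the 9 markers and the dashed line marks equal values. The markers lie in the right part of the cloud, with SDs of 0.50 to 1.24, where the highest of any tested gene is 2.99. Ppp1r1b and Pde10a are on or above the line.

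The FMT-DSS libraries were first compared with FMT-CON. Of the 9 members, 8 had higher means in FMT-DSS, as had 40.3% of all tested genes, and none passed the test. Ppp1r1b averaged 79.7 ± 41.4 FPKM in FMT-DSS and 47.2 ± 22.4 FPKM in FMT-CON (SD, n = 4 each), a change of 0.75 ± 0.37 (SE) on the log2(FPKM + 1) scale (limma, adjusted p = 0.966). Adora2a averaged 4.50 ± 5.81 FPKM in FMT-DSS and 2.38 ± 2.18 FPKM in FMT-CON, a change of 0.33 ± 0.71. Drd2 averaged 5.35 ± 6.66 FPKM in FMT-DSS and 4.09 ± 3.58 FPKM in FMT-CON. Its change was -0.01 ± 0.75, so the mean of FPKM and the mean of log values had opposite order. The other 6 changes lay between 0.11 for Drd1 and 0.32 for Rgs9.

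None of the 9 members separated FMT-DSS from FMT-CON, beside 1.75% of tested genes with groups that did not overlap. The count with an adjusted p under 0.05 was 0 of 9, and 0% of the 12559 tested genes, by limma. At an unadjusted p under 0.05 it was 0 of 9, beside 4.06% of tested genes. The exact permutation test of single members, two-sided over the 70 assignments of 8 libraries, gave p between 0.257 for Ppp1r1b and 1 for Drd2. Without FMT-DSS 3 the changes of Penk, Drd1, Adora2a, Pde10a, Rasd2 and Rgs9 turned to -0.38, -0.22, -0.33, -0.0646, -0.21 and -0.0765, that of Drd2 went to -0.67, and those of Ppp1r1b and Adcy5 were 0.44 and 0.09. The 95% interval of the change was widest for Drd2, at -1.65 to 1.62, and narrowest for Pde10a, at -0.47 to 0.88.

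The FMT-SP libraries, the group with substance P, were next compared with FMT-DSS. All 9 members had lower means in FMT-SP, as had 41.1% of all tested genes, and 0 of 9 had an adjusted p under 0.05, beside 0% of tested genes. Ppp1r1b averaged 32.4 ± 11.9 FPKM in FMT-SP and 79.7 ± 41.4 FPKM in FMT-DSS (SD, n = 4 each), a change of -1.21 ± 0.37 (limma across all genes, adjusted p = 0.999). Penk averaged 21.9 ± 11.9 FPKM in FMT-SP and 52.7 ± 50.9 FPKM in FMT-DSS, a change of -0.87 ± 0.59. Drd1 averaged 1.74 ± 0.626 FPKM in FMT-SP and 2.93 ± 2.61 FPKM in FMT-DSS, a change of -0.25 ± 0.51. Drd2 and Adora2a had changes of -0.76 ± 0.75 and -0.94 ± 0.71, and Pde10a, Rasd2, Rgs9 and Adcy5 changes of -0.51, -0.46, -0.57 and -0.39. The 4 FMT-DSS libraries enter this comparison and the one before it, so a high FMT-DSS library raises the changes in the earlier one and lowers them in this one.

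Ppp1r1b was the 1 member lower at an unadjusted p under 0.05, beside 1.23% of tested genes, or 2.5% in either direction. It was also the 1 member with groups that did not overlap, all 4 FMT-SP libraries being below all 4 FMT-DSS libraries, beside 0.709% of tested genes, or 1.27% in either direction. Its exact permutation p was 0.0286, the smallest that 4 against 4 libraries can give, and 0.995 after adjustment over all tested genes. The other 8 members had exact permutation p between 0.257 and 0.629. The change of Ppp1r1b was -0.90 without FMT-DSS 3, and that of Drd1 turned to 0.0774 (0.0456 without FMT-DSS 1). Penk went to -0.30, Adora2a to -0.29, Drd2 to -0.10, Rgs9 to -0.17, Rasd2 to -0.11, Pde10a to -0.24 and Adcy5 to -0.16 without that library.

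The last comparison set FMT-SP against FMT-CON. All 9 members had lower means in FMT-SP, as had 53.3% of all tested genes, and none passed the test (by limma). Drd2 averaged 1.69 ± 1.70 FPKM in FMT-SP and 4.09 ± 3.58 FPKM in FMT-CON, a change of -0.77 ± 0.75. Penk averaged 21.9 ± 11.9 FPKM in FMT-SP and 35.9 ± 17.5 FPKM in FMT-CON, a change of -0.68 ± 0.59. Adora2a had a change of -0.61 ± 0.71 and Ppp1r1b of -0.46 ± 0.37, and the other 5 lay between -0.31 for Rasd2 and -0.07 for Adcy5.

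In this comparison 0 of 9 members had an adjusted p under 0.05, beside 0% of tested genes, and 0 an unadjusted p under 0.05, beside 0.358%. Groups that did not overlap were found in 0 members and 0.494% of tested genes. Exact permutation p-values ran between 0.171 for Ppp1r1b, Penk and Rasd2 and 0.857 for Adcy5. FMT-SP had 1 library among the 5 highest of most members and FMT-CON had 2. Without FMT-CON 1, Drd1 had a change of 0.0862, Adcy5 of 0.11 and Rgs9 of 0.0159. Without FMT-CON 2, Drd1 had a change of 0.12 and Adcy5 of 0.0937, and without FMT-SP 4 Adcy5 had a change of 0.0155.

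The order of the 3 group means in FPKM was FMT-DSS highest, then FMT-CON, then FMT-SP for all 9 members. On the log scale Drd2 alone had FMT-CON above FMT-DSS. Neighbours in that order overlapped for every member. On the log scale the order of FMT-DSS and FMT-CON rests on FMT-DSS 3 for Penk, Drd1, Adora2a, Pde10a, Rasd2 and Rgs9. Their changes of FMT-DSS against FMT-CON were below 0 without that library, while that of Drd2 was below 0 with and without it.

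**Figure D4:**
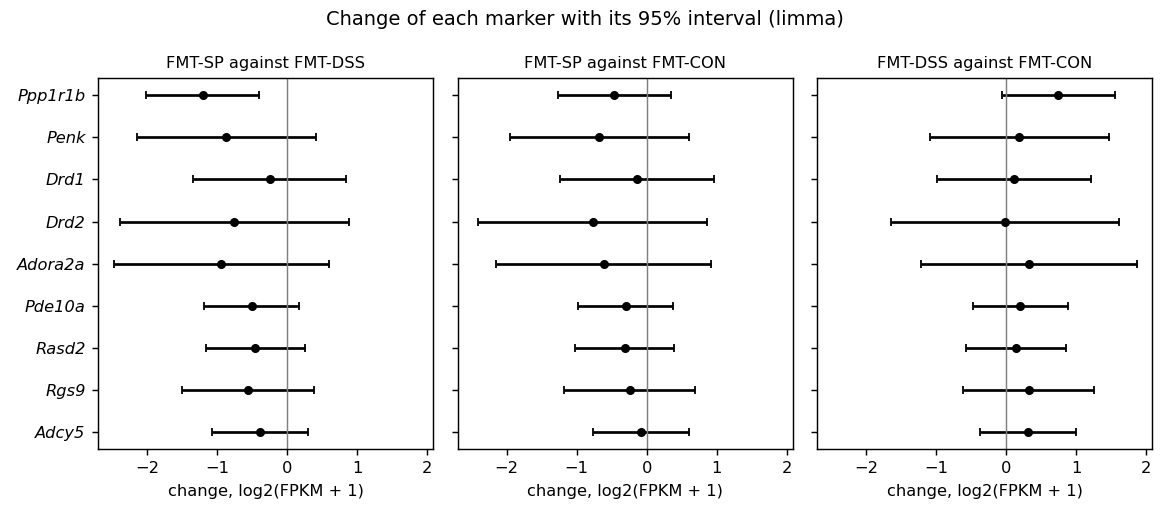
Change of each of the 9 markers in the 3 comparisons, on the log2(FPKM + 1) scale, with its 95% interval from limma over 12 libraries. The interval of Ppp1r1b in FMT-SP against FMT-DSS, -2.01 to -0.40, is the 1 of 27 that leaves out 0, before adjustment for the 12559 genes tested.

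Other genes of striatal projection neurons were examined beside the members. Of 18 further genes of such neurons, 17 were tested, and their summed level was 186 to 244 FPKM in FMT-SP, 157 to 425 FPKM in FMT-DSS and 181 to 291 FPKM in FMT-CON. FMT-DSS 3 held the highest sum, as it did for the members, and FMT-CON 1, FMT-CON 2, FMT-DSS 1 and FMT-SP 3 followed. Their correlation with the mean of the 9 members over the 12 libraries had a median of 0.85. The 4 of highest level were Gng7, a G protein subunit of the dopamine receptor pathway, Pde1b, a calcium-activated phosphodiesterase, Ptpn5, the striatum-enriched phosphatase STEP, and Gnal, the G protein subunit that couples D1 and adenosine receptors to adenylyl cyclase.

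Gng7 had 43.05, 43.1, 47.6 and 43.6 FPKM in FMT-SP 1 to 4, 54.2, 38.7, 81.9 and 31.7 FPKM in FMT-DSS 1 to 4, and 45.7, 52.7, 45.6 and 39.9 FPKM in FMT-CON 1 to 4. Pde1b reached 69.9 FPKM in FMT-DSS 3 and was lowest at 28.2 FPKM in FMT-DSS 2. Ptpn5 was likewise highest in FMT-DSS 3, at 57.8 FPKM, while Gnal was highest in FMT-CON 1, at 42.4 FPKM, above 36.3 FPKM in FMT-DSS 3. These genes had ranges of 2.04 to 3.61 times from lowest to highest library, narrower than Drd2 or Adora2a.

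Among the 17 tested, 12 had higher means in FMT-DSS than in FMT-CON, with a median change of 0.06 against -0.03 over all genes. In FMT-SP, 15 of 17 had lower means than in FMT-DSS (median -0.20 against 0.03 over all genes), and 15 of 17 lower means than in FMT-CON (median -0.17 against -0.01). In each comparison 0 of the 17 had an adjusted p under 0.05 by limma, and 0 an unadjusted p under 0.05.

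Further markers of the 2 pathways were set beside the mean of the members, which holds the indirect pathway genes Penk, Drd2 and Adora2a and the direct pathway gene Drd1. All 3 further genes of the indirect pathway were tested: Gpr6 and Gpr52, receptors that raise cAMP, and Sp9, a transcription factor. Gpr6 had 0.524, 0.887, 1.31 and 0.514 FPKM in FMT-SP 1 to 4, 2.53, 0.407, 6.83 and 0.194 FPKM in FMT-DSS 1 to 4, and 2.58, 1.91, 0.649 and 0.689 FPKM in FMT-CON 1 to 4. Their correlations with the mean of the members over 12 libraries were 0.97, 0.93 and 0.95. Of 6 further genes of the direct pathway 4 were tested, with correlations of 0.92 for Tac1, the precursor of substance P, 0.74 for Pdyn, the dynorphin precursor, 0.35 for Chrm4, a muscarinic receptor, and 0.10 for Eya1, a transcriptional regulator. The difference between the 2 lists was not tested.

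Tac1 had 5.60, 5.52, 8.97 and 8.62 FPKM in FMT-SP 1 to 4, 11.3, 5.68, 26.7 and 4.34 FPKM in FMT-DSS 1 to 4, and 14.1, 11.2, 6.18 and 7.79 FPKM in FMT-CON 1 to 4. Its 5 highest libraries were those of the members, with FMT-DSS 3 above all. Its change was -0.39 ± 0.43 in FMT-SP against FMT-DSS and 0.02 ± 0.43 in FMT-DSS against FMT-CON (limma, adjusted p = 0.999 in both). Of these direct pathway genes 3 of 4 had higher means in FMT-DSS than in FMT-CON (median 0.06), 3 of 4 lower means in FMT-SP than in FMT-DSS (median -0.07) and 2 of 4 lower means in FMT-SP than in FMT-CON (median -0.12). The 3 indirect pathway genes had medians of 0.05, -0.25 and -0.21 in those comparisons, and 0 of these 7 genes passed the test in any of them.

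The shared machinery of dopamine and cAMP signalling, 25 genes that most neurons express, was also measured. Its summed level was 1665 to 1820 FPKM in FMT-SP, 1566 to 1848 FPKM in FMT-DSS and 1613 to 1829 FPKM in FMT-CON, and its correlations with the mean of the members had a median of 0.21 and a range of -0.41 to 0.69. Single genes ran from 1.16 times between lowest and highest library for Prkaca, a catalytic subunit of cAMP-dependent kinase, to 3.005 times for Prkar2b, a regulatory subunit, both named after their values were seen. The 4 of highest level were Ppp3r1 and Ppp3ca, subunits of calcineurin, which inactivates DARPP-32, Gnas, the stimulatory G protein subunit, and Prkar1b, a subunit of cAMP-dependent kinase. In FMT-DSS 3 they stood at 324, 145, 189 and 148 FPKM, within the range of the other libraries. Median changes were -0.01 in FMT-DSS against FMT-CON, 0.07 in FMT-SP against FMT-DSS and 0.04 in FMT-SP against FMT-CON, with 0 of 25 past the adjusted threshold in each. At an unadjusted p under 0.05 there was 1 gene, higher in FMT-DSS than in FMT-CON: the adenylyl cyclase Adcy9, named for that count, with a change of 0.33 ± 0.14 (limma, adjusted p = 0.966).

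Markers of tissue next to the hippocampus also varied widely between libraries. The 8 thalamus markers summed to 14.96, 32.6, 118.5 and 14.6 FPKM in FMT-SP 1 to 4, 36.2, 35.04, 41.1 and 19.97 FPKM in FMT-DSS 1 to 4, and 218, 56.1, 21.6 and 23.2 FPKM in FMT-CON 1 to 4. Their 5 highest sums were in the same 5 libraries as those of the striatal markers, in another order. They were highest in FMT-CON 1 and FMT-SP 3, and FMT-DSS 3, where the striatal markers peaked, came after FMT-CON 2. By centred log2 values FMT-DSS 2, at -0.12, was above FMT-DSS 1, at -0.13. Correlations with the mean of the members had a median of 0.57 (0.48 to 0.65) for the 7 tested thalamus genes. For the 11 tested choroid plexus genes the median was 0.48 (0.29 to 0.55). The 12 choroid plexus markers summed to 19.5, 1866, 3871 and 57.1 FPKM in FMT-SP 1 to 4, 1824, 2941, 1314 and 2329 FPKM in FMT-DSS 1 to 4, and 3637, 2062, 91.7 and 32.5 FPKM in FMT-CON 1 to 4. By these sums FMT-DSS 2 and FMT-DSS 4, in which Ppp1r1b was high relative to Penk, were among the libraries high in choroid plexus markers. So was FMT-SP 2, in which Ppp1r1b was at 26.8 FPKM and Penk stood at 0.463 times Ppp1r1b. The highest choroid plexus sums were in FMT-SP 3 and FMT-CON 1, where Penk stood at 0.784 and 0.709 times Ppp1r1b. Ttr alone made up most of the choroid plexus sums, with 2302 of 2329 FPKM in FMT-DSS 4. On the mean of centred log2 values the choroid plexus list was at 1.05 in FMT-DSS 2, 0.29 in FMT-DSS 4 and 0.35 in FMT-SP 2. None of the thalamus or choroid plexus markers was at 0 in any library, and their part in the levels of the 9 members was not tested.

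Other lists also had lower means in FMT-SP than in FMT-DSS, where all 9 members were lower with a median of -0.57. Of all tested genes, 41.1% were lower. Lower means were found in 5 of 5 erythrocyte genes (median -0.57), 9 of 11 choroid plexus genes (median -0.43) and 3 of 3 septum and midline genes (median -0.16). They were also found in 5 of 7 CA1 genes (median -0.13) and 3 of 5 neocortex genes (median -0.01). Ddc, the 1 dopamine neuron gene tested, had a change of -0.77. Higher means in FMT-SP were found in 7 of 8 dentate granule cell genes (median 0.25), 6 of 7 thalamus genes (median 0.14) and 4 of 5 CA3 genes (median 0.04). By limma, 0 genes of these lists had an adjusted or an unadjusted p under 0.05 in that comparison, and their part in the changes of the members was not tested.

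**Figure D5:**
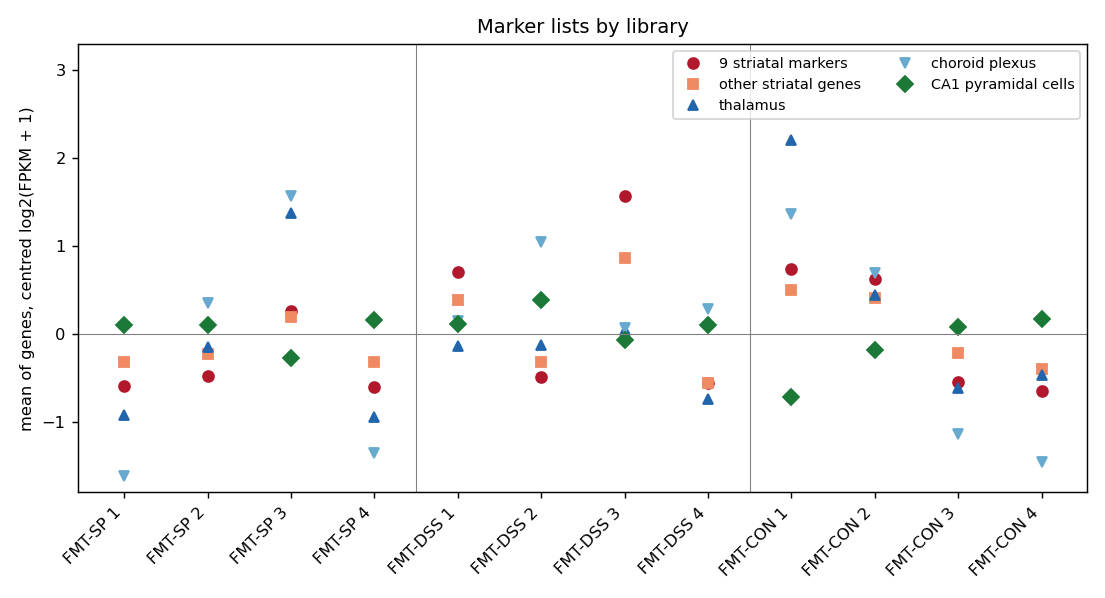
Mean of each marker list per library, on the log2(FPKM + 1) scale after each gene was centred on its mean over 12 libraries. The 9 striatal markers are highest in FMT-DSS 3 at 1.57, whereas thalamus markers are highest in FMT-CON 1 and choroid plexus markers in FMT-SP 3.

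By summed FPKM, the 5 libraries high in striatal markers were the 5 lowest in CA1 markers. On the mean of centred log2 values this did not hold for FMT-DSS 1, at 0.12, which was above FMT-CON 3 at 0.09. FMT-SP 3, FMT-DSS 3, FMT-CON 1 and FMT-CON 2 were the lowest there too. The CA1 sums were 170.1 FPKM in FMT-SP 3, 232 FPKM in FMT-DSS 1, 215 FPKM in FMT-DSS 3, 125 FPKM in FMT-CON 1 and 188 FPKM in FMT-CON 2, against 233.9 FPKM or more in the other 7 libraries. Across the 12 libraries the correlations of the 7 CA1 genes with the mean of the members had a median of -0.58 and ran from -0.70 for Spink8 to 0.32 for Wfs1, and their part in the levels of the members was not tested. Itpka, a kinase of inositol phosphates and the most abundant CA1 marker of the list, had 38.4 FPKM in FMT-CON 1 and 79.8 FPKM in FMT-DSS 3, and up to 116 FPKM in FMT-DSS 2.

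Genes outside all lists were ranked by their Pearson correlation with the mean of the 9 members over the 12 libraries, as a description. Among 12449 genes the median was 0.14 and the 99th percentile 0.74, and 2 genes exceeded 0.9. These were Leprot, which overlaps the leptin receptor gene, at 0.92, and Dclk3, a doublecortin-like kinase, at 0.91. The next were Kazn at 0.88, Cpne5 at 0.88, Pde7b, a cAMP phosphodiesterase, at 0.87, Whrn at 0.87, Coch at 0.87, Dynlt1b at 0.86, Sox1ot at 0.86 and Abhd11os at 0.86. With FMT-DSS 3 and FMT-CON 1 left out, the libraries farthest from the median, the 10 values lay between 0.62 for Abhd11os and 0.95 for Kazn. Abhd11os had 11.9 FPKM in FMT-DSS 3, and at most 5.84 FPKM elsewhere. Leprot varied only between 13.7 FPKM in FMT-CON 4 and 18.4 FPKM in FMT-DSS 3.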

How the data were processed

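Total RNA of mouse hippocampal tissue was sequenced in 12 libraries, and the deposited table gives 1 FPKM value per gene and library, computed by the authors. The submitters' processing notes name HISAT2 2.0 and the build mm8 without their roles; no source used here names the counter or annotation. Groups and replicate numbers come from the sample titles. Depth was estimated from 4713 genes with a single transcript in GENCODE vM21 (GRCm38), whose low values lie on steps of 1 fragment: 40.7% to 44.6% lay within 0.05 of a whole number, against 10% by chance, too few for a count test. Gene positions come from the same annotation, matched by symbol.

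Values were analysed as log2(FPKM + 1), which understates changes of low genes. The 12559 genes that averaged 1 FPKM or more were fitted in 1 model of all libraries (R 4.3.3, limma 3.58.1, trended variance prior), with Benjamini-Hochberg adjustment over all of them, at a threshold of 0.05. The fit was checked on simulated data. Single members were also compared by exact permutation. The members and gene lists were chosen with earlier results of these data known. Genes named outside the 9 are the 4 of highest mean in a list, or the 10 most correlated with the members' mean; exceptions are marked. Alternatives were another pseudocount, filters, rescalings, array weights, a replicate block, single comparisons and libraries left out.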

Additional observations from a re-analysis of the deposited data

Results flagged for a closer look

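Of 27 sets of 4 libraries (9 members in 3 groups), 3 held a library beyond Dixon's 95% limit for 4 values. Chance gives about 1 in 20 for a single set. The members varied together over the same libraries, so the sets are not independent and their count cannot be read against that rate. All 3 were FMT-SP 3. Ppp1r1b was at 50.2 FPKM there, against 25.1, 26.8 and 27.8 FPKM in the other FMT-SP libraries. Adora2a was at 2.69 FPKM there, against 0.402, 0.447 and 0.496 FPKM. Rasd2 was at 22.9 FPKM there, against 15.3, 15.8 and 16.4 FPKM. The thalamus and choroid plexus markers were also highest within FMT-SP in that library, at 118.5 and 3871 FPKM summed, and their part in these values was not tested. No library of FMT-DSS or FMT-CON passed that limit for any member.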

How the results depend on the processing

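No gene passed the adjusted threshold in any of the 3 comparisons or the F test under any of the alternatives, and the lowest adjusted p of a member was 0.494. Of 270 member changes under settings other than leaving out 1 library, 263 kept their direction. The 7 that reversed had been -0.14 to -0.01 with all libraries. Drd2 in FMT-DSS against FMT-CON went to 0.00899 with median-ratio rescaling, 0.0449 with quantile normalization, 0.89 with array weights, 1.31 without FMT-DSS 2 and FMT-DSS 4 and 0.0581 without the libraries numbered 4, the last 2 chosen after the data were seen. In FMT-SP against FMT-CON, array weights gave 0.00167 for Drd1 and 0.0368 for Adcy5. The cause was not tested. Leaving out 1 library reversed 23 of 324 values. In FMT-DSS against FMT-CON the ranges were -0.38 to 0.63 for Penk, -0.22 to 0.49 for Drd1, -0.67 to 0.47 for Drd2, -0.33 to 0.82 for Adora2a, -0.0646 to 0.40 for Pde10a, -0.21 to 0.39 for Rasd2 and -0.0765 to 0.60 for Rgs9, each lowest without FMT-DSS 3. Drd1 was also below 0 there without FMT-DSS 1, FMT-CON 3 or FMT-CON 4, Penk without FMT-CON 3 and Adora2a without FMT-CON 4, and Drd2 was above 0 without FMT-DSS 2, FMT-DSS 4, FMT-CON 1 or FMT-CON 2. In FMT-SP against FMT-DSS the range was -0.63 to 0.0774 for Drd1, and -1.43 to -0.90 for Ppp1r1b. In FMT-SP against FMT-CON the ranges were -0.44 to 0.12 for Drd1, -0.47 to 0.0159 for Rgs9 and -0.27 to 0.11 for Adcy5. Without FMT-DSS 2 and FMT-DSS 4, the changes in FMT-SP against FMT-DSS ran from -2.23 for Adora2a to -0.81 for Adcy5, on 2 FMT-DSS libraries.

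Same-numbered libraries did not deviate together throughout: 9 of 12 pairs had a correlation of deviations over 0.1, with a range of -0.45 to 0.84. Of the libraries, 6 of 12 were on average closest to those of their own number, out of 4 numbers. Those numbered 4 did deviate together, with 0.69 for FMT-SP and FMT-DSS, 0.84 for FMT-SP and FMT-CON and 0.72 for FMT-DSS and FMT-CON. The 36 pairs of unlike number ran from -0.75 to 0.68, and a smaller share of them than of same-numbered pairs was over 0.1. With the number as a replicate block, 0 genes passed in each comparison, and the genes at an unadjusted p under 0.05 were 1274 against 510 without it in FMT-DSS against FMT-CON, 885 against 314 in FMT-SP against FMT-DSS and 310 against 45 in FMT-SP against FMT-CON. The block left the change of Ppp1r1b in FMT-SP against FMT-DSS at -1.21, with an adjusted p of 0.672 by limma.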

Other observations

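Markers of other cell types and regions were measured beside the striatal set. The 4 cholinergic markers, which include Chat and mark a class of striatal and septal neurons, were all below the level for testing, and their sum was highest in FMT-CON 1 at 6.68 FPKM and next in FMT-DSS 3 at 2.90 FPKM. Of the 4 dopamine neuron markers 1 was tested, Ddc, with a change of 0.80 ± 0.36 in FMT-DSS against FMT-CON (limma, adjusted p = 0.966), and their sum was highest in FMT-DSS 4 at 14.5 FPKM. The 5 septum and midline markers had their highest sums in FMT-CON 1 at 65.4 FPKM, FMT-SP 3 at 38.4 FPKM and FMT-DSS 3 at 28.8 FPKM. Of the 3 tested, Zic1 and Zic2 had correlations of 0.67 and 0.69 with the mean of the striatal members over the 12 libraries, and Trpc4 of -0.33. Neocortex markers summed to 28.8 to 58.3 FPKM in FMT-SP, 36.0 to 49.4 FPKM in FMT-DSS and 28.4 to 44.1 FPKM in FMT-CON, and CA3 markers to 42.5 to 52.0, 39.6 to 55.6 and 46.7 to 52.3 FPKM. Erythrocyte markers summed to 1337 FPKM in FMT-SP 2, where the striatal markers were low, and to 399 FPKM in FMT-DSS 3.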
